A study of Mus musculus with 24 samples.

Results

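The mitochondrially encoded genes are the genes carried by the small circular DNA of the mitochondrion itself. They were taken here as every gene of the deposited count table whose Ensembl identifier has a symbol beginning with mt-. The rule found 37 of the 43432 genes in the table: 2 ribosomal RNAs (rRNAs), 13 messenger RNAs (mRNAs) and 22 transfer RNAs (tRNAs). The rule itself uses no measured value.

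The study compared hearts of C57BL/6 mice under an exercise stimulus and under pressure overload, in 24 libraries of total RNA that fall into 6 groups of 4. Wheel running for 8 weeks was set against sedentary mice. Pressure overload by TAC (transverse aortic constriction, in which a band narrows the aorta and the left ventricle pumps against a raised load) was examined after 2 weeks, in the groups named TAC-LVH and Sham-LVH, and after 8 weeks, in the groups named TAC-HF and Sham-HF. Each TAC group had its own sham-operated group. No transgene or drug was named in any group, and the sources used here do not state the age or sex of the mice or the time from sham surgery to collection. The labels do not say that each library came from a separate heart, so p-values measure the spread between these libraries, which may be technical in part. Ribosomal RNA had been depleted with the RiboZero kit before the libraries were made, which bears on the rRNA values. Libraries held 16802939 to 39512101 counts, with a median of 22845050, and 5949640 to 12932067 of these lay outside the mitochondrially encoded genes. All 8 cardiomyocyte markers examined (among them Myh6, Tnnt2 and Ryr2) were above 0 in every library.

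All of the messenger RNAs of the mitochondrial DNA code for subunits of the respiratory chain and of the ATP synthase, which make most of the ATP that the beating heart uses. Complex I (NADH dehydrogenase) takes its core membrane subunits from the mt-Nd genes, complex III its cytochrome b from mt-Cytb, complex IV (cytochrome c oxidase) its catalytic core from mt-Co1, mt-Co2 and mt-Co3, and complex V (ATP synthase) a pair of membrane subunits from mt-Atp6 and mt-Atp8. Every other subunit is coded in the nucleus and imported. The mitochondrial DNA is copied by a single polymerase, Polrmt, into long transcripts of each strand. These are cut at the tRNAs that lie between most genes, which frees the mRNAs, the rRNAs and the tRNAs. The light strand transcript carries one of the mRNAs, mt-Nd6, and the heavy strand transcript carries the others and both rRNAs. The rRNAs mt-Rnr1 and mt-Rnr2 form the small and the large subunit of the mitochondrial ribosome. An mRNA's steady level therefore depends on transcription of the shared precursor, on cutting and on stability.

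Some neighbouring mitochondrial genes share bases, which matters for counting, since a read in the shared stretch fits both. The sequences of mt-Atp8 and mt-Nd4l are shown for this reason, read 5′ to 3′ from GENCODE M21 transcripts of build GRCm38, with the bases that also begin the next gene in capitals. In mt-Atp8, a gene of 204 bases, the last 43 are also the first 43 of mt-Atp6. In mt-Nd4l, of 297 bases, the last 7 are the first 7 of mt-Nd4.
mt-Atp8: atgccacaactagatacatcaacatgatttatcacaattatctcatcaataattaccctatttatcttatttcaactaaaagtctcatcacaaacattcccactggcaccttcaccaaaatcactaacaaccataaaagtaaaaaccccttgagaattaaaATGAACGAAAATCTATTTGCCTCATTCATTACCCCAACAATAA
mt-Nd4l: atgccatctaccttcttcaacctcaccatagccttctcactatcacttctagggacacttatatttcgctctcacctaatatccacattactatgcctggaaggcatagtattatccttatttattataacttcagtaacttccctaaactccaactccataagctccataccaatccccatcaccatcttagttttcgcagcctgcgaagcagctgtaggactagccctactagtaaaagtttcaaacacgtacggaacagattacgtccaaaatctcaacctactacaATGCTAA

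The tRNAs could not be measured. Their genes are 59 to 75 bases long, and all 22 are listed at 0 in all 24 libraries. The same held for short genes in general: 2144 genes of the table are shorter than 100 bases and 0 of them had a count, the shortest gene with a count is 105 bases long, and 228 of the 3203 genes of 100 to 149 bases had any. A value of 0 for these genes therefore goes with their length and says nothing of the tRNAs in the heart. The sequences of mt-Tf, mt-Tl1 and mt-Ts2 are shown with no base marked. mt-Tf (phenylalanine) is the first tRNA of the heavy strand transcript, mt-Tl1 (leucine) follows mt-Rnr2 and mt-Ts2 (serine) is the shortest of the 22.
mt-Tf: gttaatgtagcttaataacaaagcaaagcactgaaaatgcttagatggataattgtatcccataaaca
mt-Tl1: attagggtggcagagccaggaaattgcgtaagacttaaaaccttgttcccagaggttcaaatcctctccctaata
mt-Ts2: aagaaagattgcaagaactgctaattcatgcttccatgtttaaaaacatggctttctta

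Near-identical copies of mitochondrial genes in the nuclear DNA took many of the reads that the mitochondrial genes could have been given. Such copies are remnants of mitochondrial DNA inserted into chromosomes, annotated as pseudogenes. A search of the GENCODE M21 transcripts for pseudogenes at least 90% identical over at least 100 bases found 15 copies of 11 members, and none for mt-Rnr1, mt-Rnr2, mt-Nd1 and mt-Atp8. Identity was complete over the aligned bases for 5 of them, and 9 had a median of at least 100 counts. For mt-Atp6, the copy Gm10925 (identical over 678 of the 681 bases) held between 51.9% and 67.3% of the pair's counts in a library, with a median of 59.6%. Gm28661, the copy of mt-Co2 (681 of 684 bases), held 44.8% to 56.0%, and Gm28437, the copy of mt-Co3 (783 of 784 bases), 36.7% to 46.8%. These 3 copies thus held counts of the same order as the genes themselves in all 6 groups. A further copy of mt-Co2, Gm13341, held at most 0.191%. For the remaining genes the split was smaller: 3.85% to 16.1% for Gm10222 beside mt-Nd4l, 2.68% to 9.41% for Gm28438 beside mt-Nd3, 0.576% to 4.04% for Gm28439 beside mt-Nd4 and 0.174% to 4.33% for Gm29216 beside mt-Co1.

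The copy of mt-Nd3 shows how little separates a pair. Over 345 aligned bases mt-Nd3 and Gm28438 differ by 1 substitution, T3C, counted from the first base of mt-Nd3, so that only reads crossing this base can tell them apart. The first 15 bases of both are shown with that base in capitals.
mt-Nd3: atTaacctgtacact
Gm28438: atCaacctgtacact
Because counting can move reads between the members of a pair, values of the 11 genes with a copy are uncertain to that extent. Each result below was therefore also computed with the counts of the copies added to the gene they copy.

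**Figure D1:**
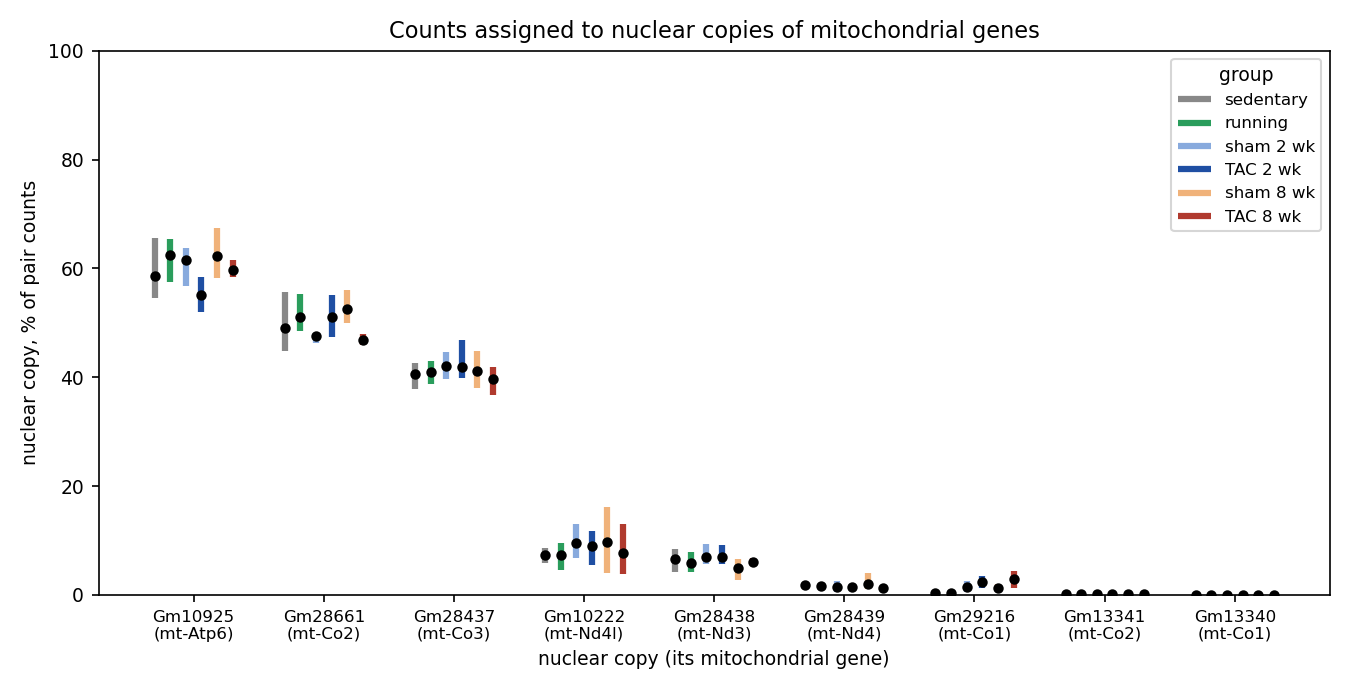
Share of a pair's counts held by the nuclear copy, in percent of the counts of the copy and its mitochondrial gene together (vertical axis), for the 9 copies with a median of at least 100 counts; points are the means of 4 libraries and bars run from the lowest to the highest library of a group. Gm10925 (mt-Atp6), Gm28661 (mt-Co2) and Gm28437 (mt-Co3) held 36.7% to 67.3% in every library, the other copies plotted at most 16.1%.

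Levels were compared between genes per length, as CPM (counts scaled to a common library size with edgeR's TMM factors), divided by the length of the transcript in kilobases. In the sham group of the 2-week comparison mt-Rnr2 stood at 314442 ± 17405 CPM per kilobase (SD, n = 4) and mt-Rnr1 at 67247 ± 7304. The highest mRNA was mt-Co1 at 25916 ± 1236 CPM per kilobase, followed by mt-Co3 at 13163 ± 755 and mt-Co2 at 8325 ± 243. The ranges of these 3 complex IV mRNAs did not overlap in these sham hearts. Next came mt-Nd1 (6727 ± 200), and then mt-Nd3 (5845 ± 477), mt-Cytb (5680 ± 570), mt-Nd4 (5675 ± 572) and mt-Atp6 (5646 ± 388), whose CPM per kilobase did not differ beyond their spread. Below mt-Nd2 (4859 ± 202) stood mt-Nd5 (3507 ± 533), mt-Atp8 (2793 ± 275), mt-Nd4l (2163 ± 229) and mt-Nd6 (1913 ± 173). The range of each of these last genes overlapped that of the next in the order. With the copies added, mt-Co3 rose to 22727 ± 1028, mt-Co2 to 15878 ± 434 and mt-Atp6 to 14666 ± 467 CPM per kilobase, so that the fourth place of mt-Atp6 among the mRNAs depends on where reads were assigned. Counted levels per length of the heavy strand genes thus differed by more than the spread between hearts. No tRNA lies between mt-Atp8 and mt-Atp6 or between mt-Nd4l and mt-Nd4, so their values need not be those of separate mRNAs. The part of the short length of mt-Atp8 and mt-Nd4l in their low values was not tested.

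**Figure D2:**
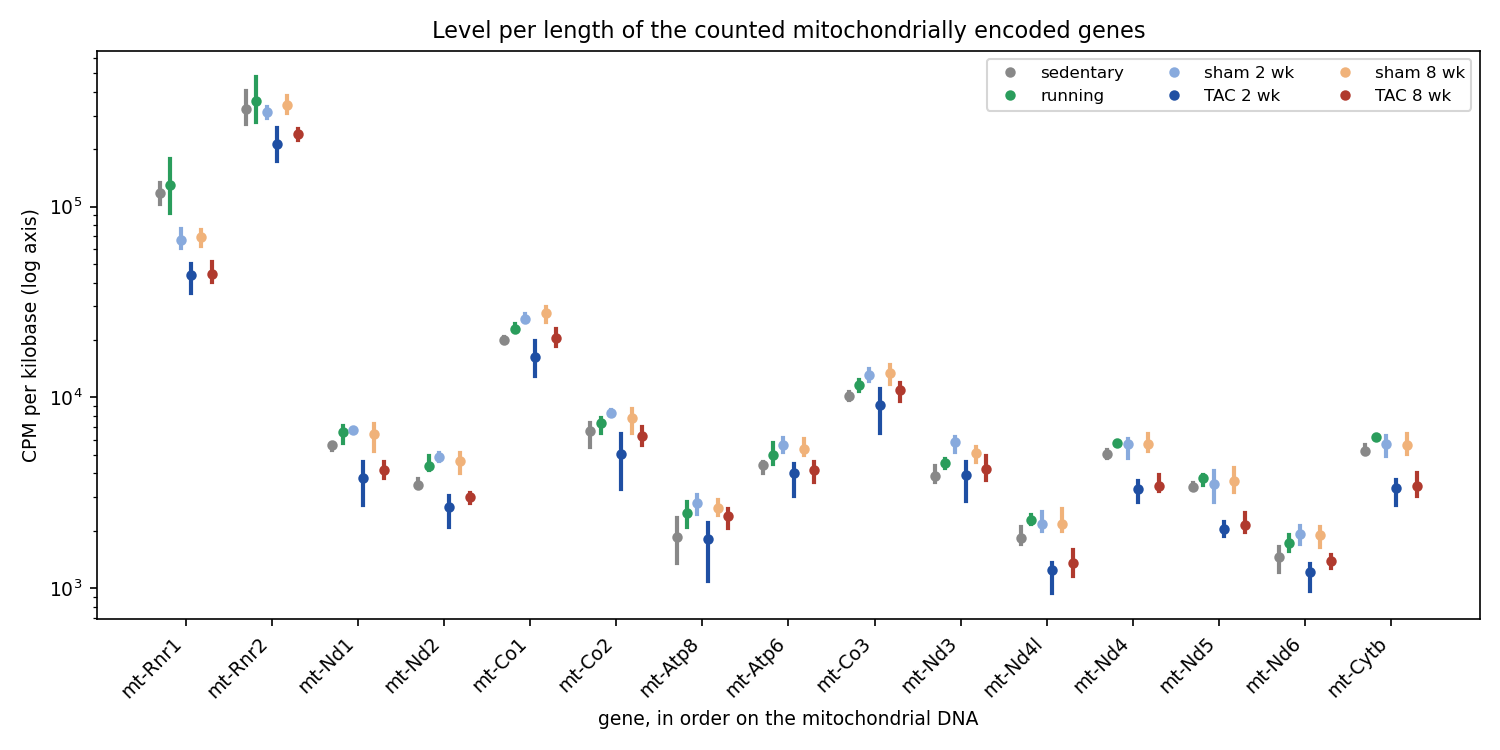
Level of the 15 counted mitochondrially encoded genes in CPM per kilobase of transcript (log axis), in their order on the mitochondrial DNA; points are means of 4 libraries and bars run from the lowest to the highest library. The means of TAC groups lie below those of their sham groups for all 15 genes on this scale, while at 8 weeks the ranges of 4 genes overlap. mt-Rnr1 is higher in the sedentary and running groups than in the 4 surgical groups.

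After 2 weeks of TAC all 15 counted mitochondrially encoded genes fell against their sham group. The edgeR quasi-likelihood log2 fold changes ran from -0.87 to -0.50 with a median of -0.67, beside a median of 0.00 over the 14224 genes tested. At an adjusted p under 0.05, 15 of 15 were lower, where 16.1% of all genes tested were called lower. For all 15, no TAC library reached the lowest sham library in CPM; 15.6% of all genes tested were lower in that way. The largest change was in mt-Nd2, a complex I membrane subunit. Its CPM was 5066, 5327, 4843 and 4940 in the sham hearts and 2174, 2900, 3158 and 2843 in the TAC hearts. The lowest sham heart was thus well above the highest TAC heart, and the log2 fold change was -0.87 (SE 0.14; adjusted p = 0.000335, edgeR), a fall of 45.2%.

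All 7 complex I genes fell at 2 weeks, with log2 fold changes from -0.87 to -0.59. mt-Nd1, which sits at the base of the membrane arm near the ubiquinone site, gave 6611, 6596, 6275 and 6269 CPM in sham hearts against 2611, 3858, 4402 and 3660 in TAC hearts. That is a log2 fold change of -0.83 (SE 0.16; adjusted p = 0.00119, edgeR). The proton-pumping subunits mt-Nd4 (-0.78) and mt-Nd5 (-0.79) and the small subunit mt-Nd4l (-0.80) fell to a like degree. mt-Nd6, the light strand mRNA, changed by -0.65 (SE 0.13) and mt-Nd3 by -0.59 (SE 0.16). The log2 fold change of mt-Nd6 lay inside the range of the heavy strand mRNAs. mt-Cytb, the electron-carrying core of complex III, had 7181, 6328, 5673 and 6812 CPM in sham hearts and 3128, 4083, 4228 and 3813 in TAC hearts, a log2 fold change of -0.77 (SE 0.14).

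Log2 fold changes of the 5 genes of complexes IV and V ran from -0.73 to -0.50, a range that overlaps that of complex I. mt-Co1, the subunit that holds the site where oxygen is reduced, stood at 38520, 42297, 38392 and 40948 CPM in sham hearts and at 19904, 26161, 30352 and 24680 in TAC hearts. Its log2 fold change was -0.67 (SE 0.15; adjusted p = 0.00392, edgeR), and mt-Co2, which accepts electrons from cytochrome c, changed by -0.73 (SE 0.18). The structural subunit mt-Co3 changed by -0.53 (SE 0.17; adjusted p = 0.0265, edgeR) and mt-Atp6, which forms part of the proton channel of ATP synthase, by -0.50 (SE 0.14; adjusted p = 0.0161, edgeR). These were the smallest called changes among the 15. The mt-Co3 call was lost without sham replicate 2 (adjusted p = 0.0602, edgeR), sham replicate 4 (0.0712) or TAC replicate 4 (0.0864). With copies added mt-Atp6 and its copy together changed by more, and the smallest of the 15 was then -0.54. mt-Atp8, a short subunit of the same complex, changed by -0.63 (SE 0.19; adjusted p = 0.0216, edgeR); its adjusted p was 0.0540 without the filter on low counts, 0.0977 with the replicate number as a block, and 0.0574 and 0.0514 without sham replicate 1 or 3.

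Both rRNAs fell alongside the mRNAs at 2 weeks. mt-Rnr1 had 73096, 59678, 57744 and 66367 CPM in sham hearts and 33868, 47122, 47617 and 38663 in TAC hearts, a log2 fold change of -0.62 (SE 0.16; adjusted p = 0.00809, edgeR). mt-Rnr2 had 527707, 500096, 460864 and 501119 CPM in sham hearts and 275882, 334634, 411201 and 320777 in TAC hearts, with -0.57 (SE 0.16; adjusted p = 0.0135, edgeR). In both genes TAC replicate 1 was the lowest library, as it was for each of the genes given above. Apart from scaling to library totals, each alternative and each left-out library gave 14 or 15 lower calls.

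After 8 weeks of TAC, 14 of the 15 genes fell, where 14.7% of the 13621 genes tested were called lower. The log2 fold changes ran from -0.80 to -0.17 with a median of -0.54, beside 0.00 over all genes tested. In 11 of the 15 the TAC libraries all lay below the sham libraries, as did 13.5% of all genes tested; ranges overlapped for mt-Nd3, mt-Co3, mt-Co2 and mt-Atp8. The largest change was in mt-Nd5, which had 5855, 6782, 6149 and 7769 CPM in sham hearts against 3807, 4525, 3598 and 3619 in TAC hearts. Every TAC heart was below every sham heart, and the log2 fold change was -0.80 (SE 0.12; adjusted p = 0.000196, edgeR), a fall of 42.4%.

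Most genes of complexes I and III again had the largest changes. mt-Nd4 had 7185, 8003, 7378 and 8889 CPM in sham hearts and 4531, 5423, 4509 and 4433 in TAC hearts, a log2 fold change of -0.76 (SE 0.11; adjusted p = 0.000150, edgeR). mt-Cytb had 5782, 6672, 5937 and 7355 against 3759, 4587, 3836 and 3461 CPM, with -0.74 (SE 0.11). mt-Nd4l changed by -0.70 (SE 0.12), mt-Nd2 by -0.66 (SE 0.10) and mt-Nd1 by -0.65 (SE 0.12), none with overlapping groups. mt-Nd6 lay between, at -0.47 (SE 0.10; adjusted p = 0.00264, edgeR).

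The genes of complexes IV and V had log2 fold changes from -0.45 to -0.17 at 8 weeks. mt-Co1 had 38455, 46066, 40953 and 44901 CPM in sham hearts and 30744, 31889, 35120 and 28837 in TAC hearts, a log2 fold change of -0.45 (SE 0.10; adjusted p = 0.00421, edgeR) or a fall of 26.9%. mt-Co3 had 9218, 11559, 10998 and 10521 CPM in sham hearts against 8491, 9087, 9282 and 7488 in TAC hearts, with -0.32 (SE 0.10; adjusted p = 0.0304, edgeR). The TAC heart at 9282 CPM was above the sham heart at 9218, so mt-Co3 groups overlapped. mt-Co2 (-0.33, SE 0.11) and mt-Nd3 (-0.30, SE 0.11) gave similar values. With adjusted p of 0.0313 and 0.0437 by edgeR, these were the calls closest to the threshold. A covariate for library number in the labels separated the first 4 from the last 4 of a cohort. With it the calls of mt-Co2, mt-Co3 and mt-Nd3 were all lost (adjusted p = 0.144, 0.106 and 0.115, edgeR). Their log2 fold changes were then -0.30, -0.33 and -0.32. Most TAC libraries had numbers in the first 4 and most sham libraries in the last 4, so number and TAC cannot be fully told apart. Each of these calls was also lost without sham replicate 2, 3 or 4 or TAC replicate 1 or 4, with adjusted p from 0.0540 to 0.124. That of mt-Nd3 was also lost without TAC replicate 2 (0.0918). With all 24 libraries in the fit mt-Co2 reached 0.0697 and mt-Nd3 0.0564, and mt-Nd3 reached 0.0595 with the replicate block and 0.0565 once copies were added.

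mt-Atp8 was the gene not called at 8 weeks. It had 494, 592, 546 and 525 CPM in sham hearts and 486, 529, 510 and 419 in TAC hearts, ranges that overlap, with a log2 fold change of -0.17 (SE 0.10; adjusted p = 0.196, edgeR). mt-Atp6, which begins inside mt-Atp8, had 3513, 4102, 3561 and 3379 CPM against 2807, 2883, 3139 and 2451, no overlap, and -0.39 (SE 0.10; adjusted p = 0.0101, edgeR). Both rRNAs fell, with log2 fold changes of -0.66 for mt-Rnr1 (SE 0.11; adjusted p = 0.000586, edgeR) and -0.54 for mt-Rnr2 (SE 0.10; adjusted p = 0.00138, edgeR). mt-Rnr2 had 487873, 565509, 516111 and 601655 CPM in sham hearts and 369825, 382525, 406023 and 355595 in TAC hearts, again without overlap.

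How far these genes fell depends on the scale. TMM factors centre the median gene near 0, while scaling to library totals moved the median of all genes' log2 fold changes to 0.41 at 2 weeks and 0.33 at 8 weeks, since the mitochondrially encoded genes make up a large part of each total. On that scale all genes called split into 6995 higher and 614 lower at 2 weeks, in place of 2428 and 2289, and into 6075 and 568 at 8 weeks, in place of 2032 and 2000. The 15 members then ran from -0.47 to -0.10 at 2 weeks, with 8 called lower, and from -0.46 to 0.16 at 8 weeks, with 8 called lower. mt-Co2 (0.00486), mt-Co3 (0.0100), mt-Nd3 (0.0306) and mt-Atp8 (0.16) turned above 0 at 8 weeks and were not called. All 15 members lay below the shifted median at both times. A change of scale moves all genes nearly alike, so this adds nothing to the result with TMM factors. With library size and factors taken from the genes that are no members, 15 and 14 were called lower, as before.

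Seen along the mitochondrial DNA, the changes fell into blocks. This was noticed in the fold changes and is given as a description with no test. The 6 consecutive mRNAs from mt-Co1 to mt-Nd3 (mt-Co1, mt-Co2, mt-Atp8, mt-Atp6, mt-Co3 and mt-Nd3) had log2 fold changes from -0.73 to -0.50 at 2 weeks. The 6 heavy strand mRNAs on either side, mt-Nd1 and mt-Nd2 before them and mt-Nd4l, mt-Nd4, mt-Nd5 and mt-Cytb after them, ran from -0.87 to -0.77, so the ranges did not meet. At 8 weeks the middle block ran from -0.45 to -0.17 and the flanking genes from -0.80 to -0.65. The 2-week gap was narrow: with single libraries left out, mt-Co2 ran from -0.88 to -0.57 and mt-Cytb from -0.84 to -0.68, ranges that overlap. Both rRNAs, which lie before mt-Nd1, were left out of the blocks. mt-Rnr1 and mt-Rnr2 changed by -0.62 and -0.57 at 2 weeks, inside the range of the middle block, and by -0.66 and -0.54 at 8 weeks. The division does not follow the complexes alone, since mt-Nd3 of complex I changed as little as its neighbours mt-Co3 and mt-Atp6. With the copies added the blocks still did not meet, with -0.71 to -0.54 against -0.87 to -0.77 at 2 weeks and -0.50 to -0.17 against -0.80 to -0.65 at 8 weeks. Under running the same blocks overlapped, at 0.11 to 0.40 and 0.13 to 0.32.

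**Figure D3:**
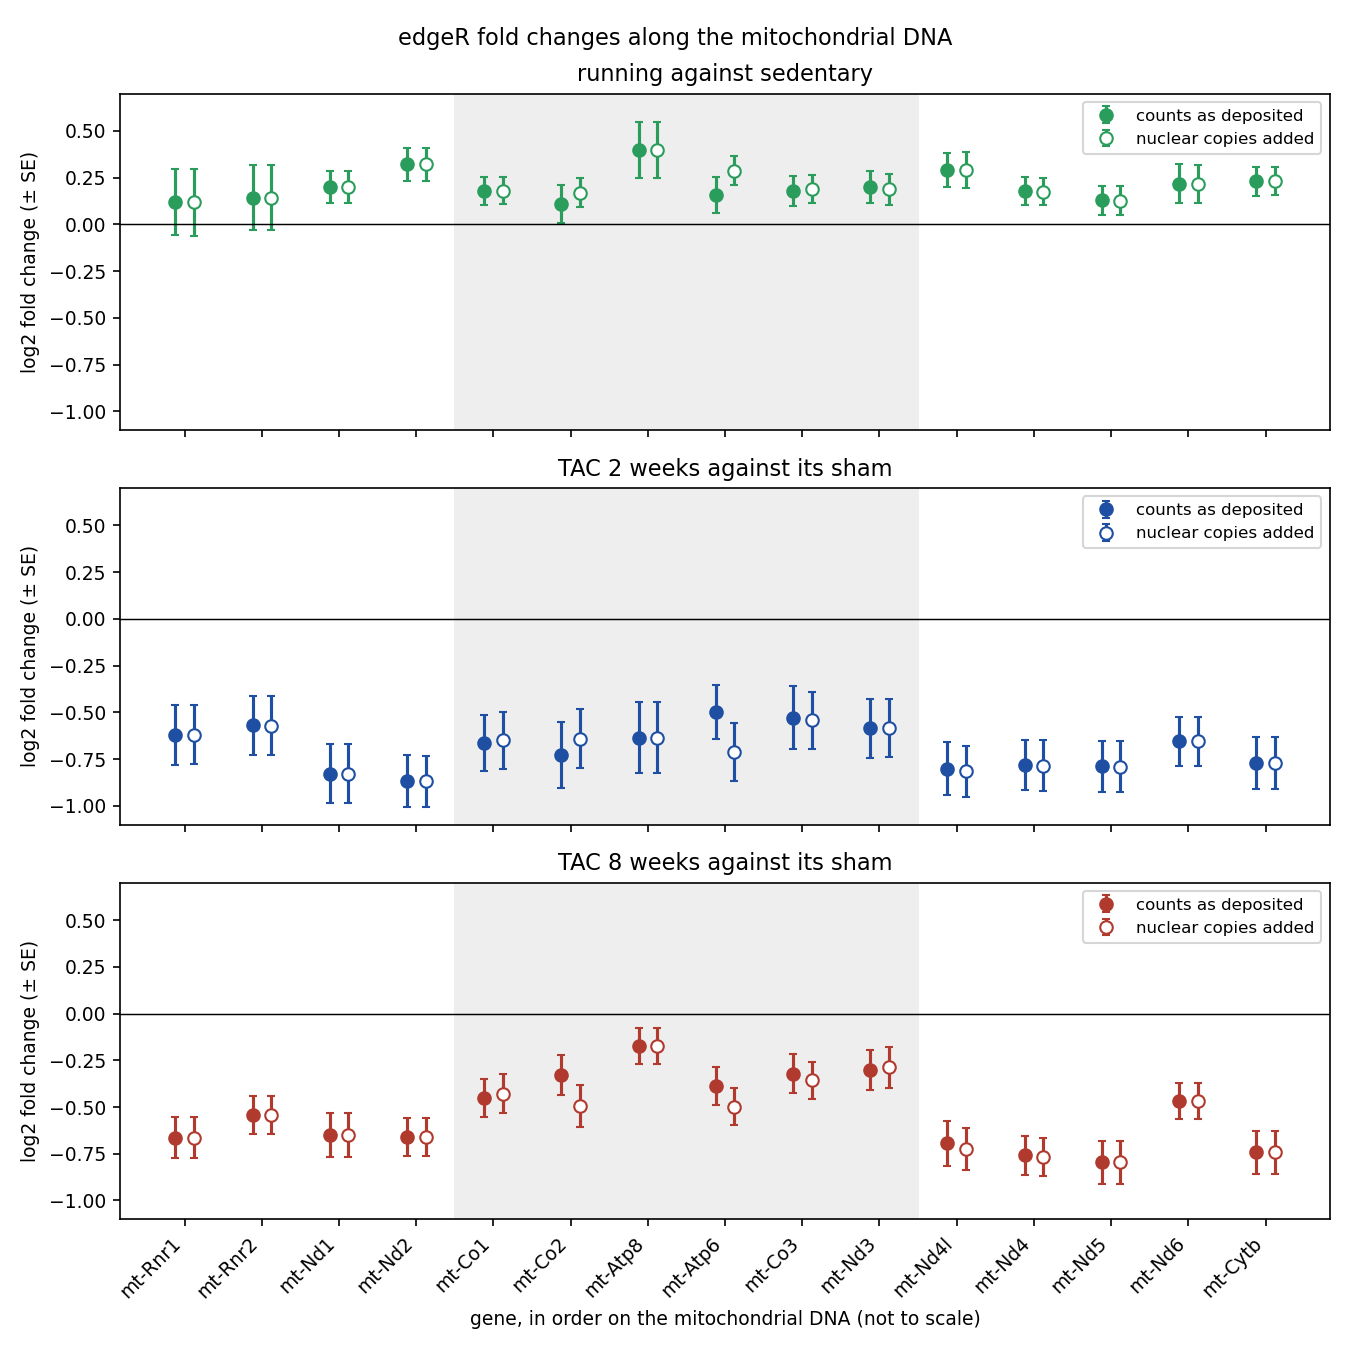
Log2 fold change ± SE from edgeR (vertical axis) for the 15 counted genes in their order on the mitochondrial DNA, for each main comparison; filled points use counts as deposited, open points have the counts of nuclear copies added, and the grey band covers mt-Co1 to mt-Nd3. At 8 weeks of TAC the genes in the band lie between -0.45 and -0.17 and the other heavy strand mRNAs between -0.80 and -0.65.

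The same block pattern can be read heart by heart as the ratio of middle-block to flanking-block counts, which does not depend on the scaling. The blocks were chosen from the fold changes of these same libraries, so the ratio describes the pattern and is no separate support for it. Counts weight it, and mt-Co1 alone took 43.5% of the mitochondrial mRNA counts in 8-week sham hearts. The ratio was 1.91 ± 0.17 (SD, n = 4) in the sham and 2.13 ± 0.14 in the TAC hearts at 2 weeks, where the ranges of 1.68 to 2.10 and 1.97 to 2.28 overlapped. At 8 weeks it was 1.98 ± 0.13 in the sham and 2.47 ± 0.22 in the TAC hearts, and the ranges of 1.798 to 2.06 and 2.21 to 2.75 did not overlap. Sedentary and running hearts had lower ratios, 1.68 ± 0.03 and 1.64 ± 0.07. At 8 weeks every TAC heart was thus above every sham heart.

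Shares of the respiratory complexes within the mitochondrial mRNA counts are also free of scaling. At 8 weeks complex I took 29.5% ± 1.1 (SD, n = 4) in sham and 26.2% ± 1.2 in TAC hearts, with sham hearts at 29.0, 28.8, 28.9 and 31.2% and TAC hearts at 26.0, 27.4, 24.6 and 26.6%. The groups did not overlap, and the exact two-sided permutation test gave p = 0.0286, the smallest that 4 against 4 allows; adjusted over the 27 ratio tests of the report p was 0.0964. The complex III share was 6.56% ± 0.35 in sham and 5.58% ± 0.48 in TAC hearts, with the same p values by the exact permutation test. Complex IV took 59.7% ± 1.1 in sham and 63.6% ± 1.5 in TAC hearts, again without overlap and with the same exact permutation p. Complex V was at 4.28% ± 0.38 in sham and 4.71% ± 0.15 in TAC hearts (exact permutation p = 0.0571). With copies added the complex III shares of sham and TAC hearts overlapped (exact permutation p = 0.0571). No ratio test passed 0.05 after adjustment. At 2 weeks the shares moved in the same directions, with overlapping groups: 30.5% and 28.6% for complex I, 6.74% and 6.41% for complex III, 58.2% and 59.8% for complex IV, and 4.59% and 5.17% for complex V, in sham and TAC hearts (exact permutation p from 0.0857 to 0.400). The complex V difference went with the assignment of mt-Atp6 reads, since with copies added its share was 9.10% in sham and 8.87% in TAC hearts at 2 weeks.

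**Figure D4:**
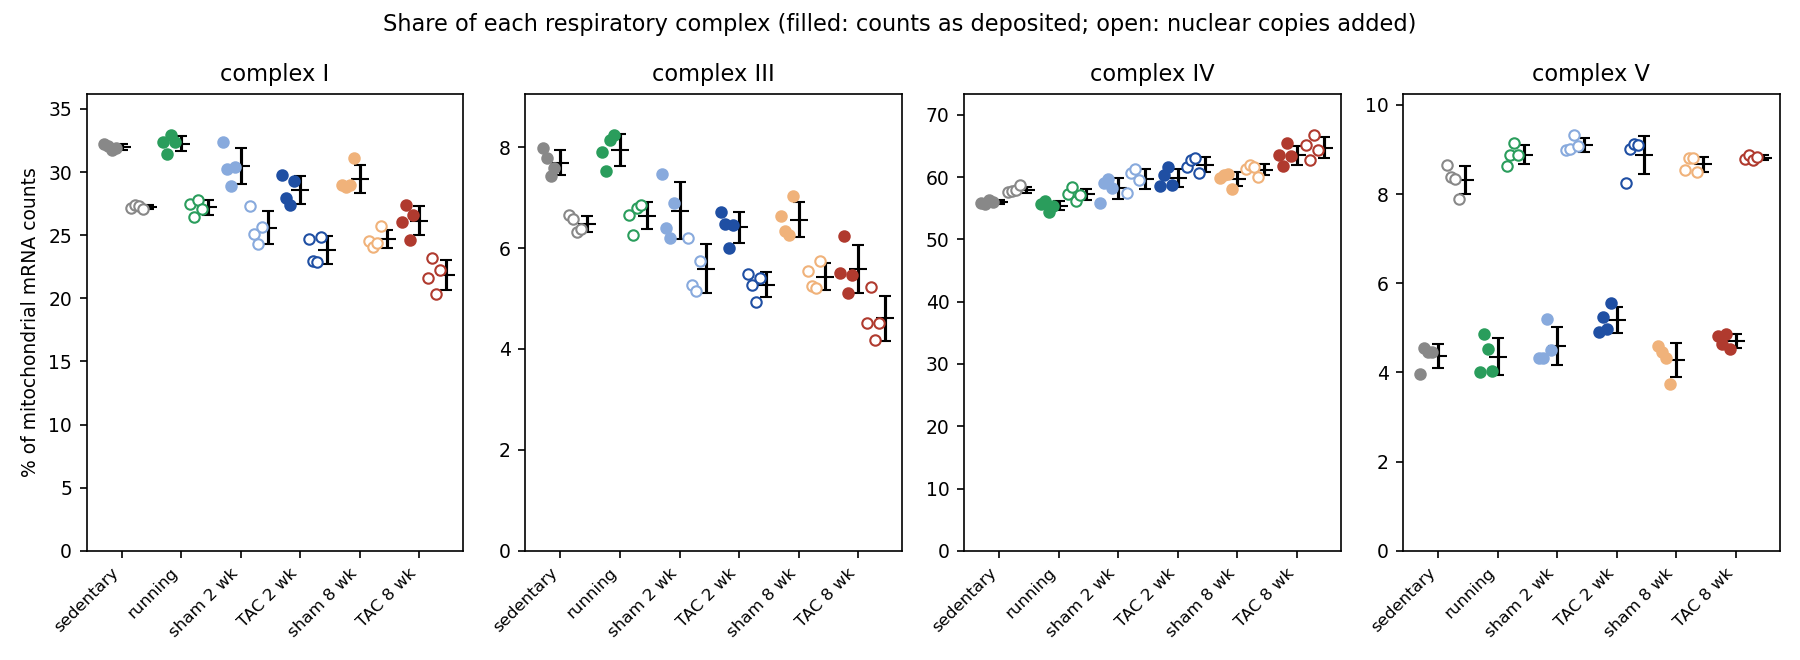
Share of each respiratory complex in the mitochondrial mRNA counts of a heart, in percent; each point is a library, filled for counts as deposited and open with nuclear copies added, and black marks give the mean ± SD of 4 libraries. At 8 weeks of TAC complex I was at 26.2% against 29.5% in sham hearts and complex IV at 63.6% against 59.7%, whereas the complex V share depends mainly on whether copies are added.

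Among single mRNAs, mt-Co1 took 43.5% ± 0.56 (SD, n = 4) of the mitochondrial mRNA counts in the 8-week sham hearts and 45.2% ± 1.39 in the TAC hearts. mt-Co3 took 10.8% ± 0.65 and 12.2% ± 0.29. mt-Nd4 went from 8.03% ± 0.41 to 6.75% ± 0.59 and mt-Nd5 from 6.76% ± 0.46 to 5.56% ± 0.57. For mt-Co3, mt-Nd4 and mt-Nd5 the sham and TAC hearts did not overlap in this share, while mt-Co1 overlapped.

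The classes were then compared per heart. Mitochondrial mRNA made 0.242 ± 0.013 counts per count outside the mitochondrial genes in the 2-week sham hearts and 0.164 ± 0.023 in TAC hearts (SD, n = 4), and 0.248 ± 0.025 and 0.177 ± 0.017 at 8 weeks. Mitochondrial rRNA made 1.41 ± 0.13 in sham and 1.03 ± 0.14 in TAC hearts at 2 weeks, and 1.54 ± 0.17 and 1.06 ± 0.09 at 8 weeks. None of these pairs of groups overlapped, each with exact permutation p = 0.0286, adjusted 0.0964. Both classes were thus lower in every TAC heart than in any of its sham hearts.

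The ratio of rRNA to mRNA counts, by contrast, showed overlapping groups in all 3 comparisons. It was 5.83 ± 0.28 (SD, n = 4) in sham and 6.32 ± 0.30 in TAC hearts at 2 weeks, with sham hearts at 6.25, 5.66, 5.67 and 5.75 and TAC hearts at 6.65, 6.05, 6.50 and 6.09 (exact permutation p = 0.0857, adjusted 0.193). At 8 weeks it was 6.21 ± 0.17 in sham and 6.01 ± 0.18 in TAC hearts (exact permutation p = 0.171, adjusted 0.331), a shift in the other direction. Sedentary hearts had 8.02 ± 1.05 and running hearts 7.81 ± 2.14, and running replicate 2 at 5.71 and replicate 4 at 10.8 span more than all surgical hearts. An rRNA depletion step came before sequencing, so the ratio describes what the depletion left and not the proportion in the heart. The part of depletion in it was not tested. The 2 genes over nuclear ribosomal DNA that the table holds, Gm42418 and Gm26917, summed to 742 to 1001 CPM in the 2-week sham hearts and 1045 to 1329 in the TAC hearts. At 8 weeks they summed to 1122 to 1532 CPM in sham and 980 to 1412 in TAC hearts, and in the exercise experiment to 1516 to 2191 in sedentary and 969 to 2367 in running hearts.

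**Figure D5:**
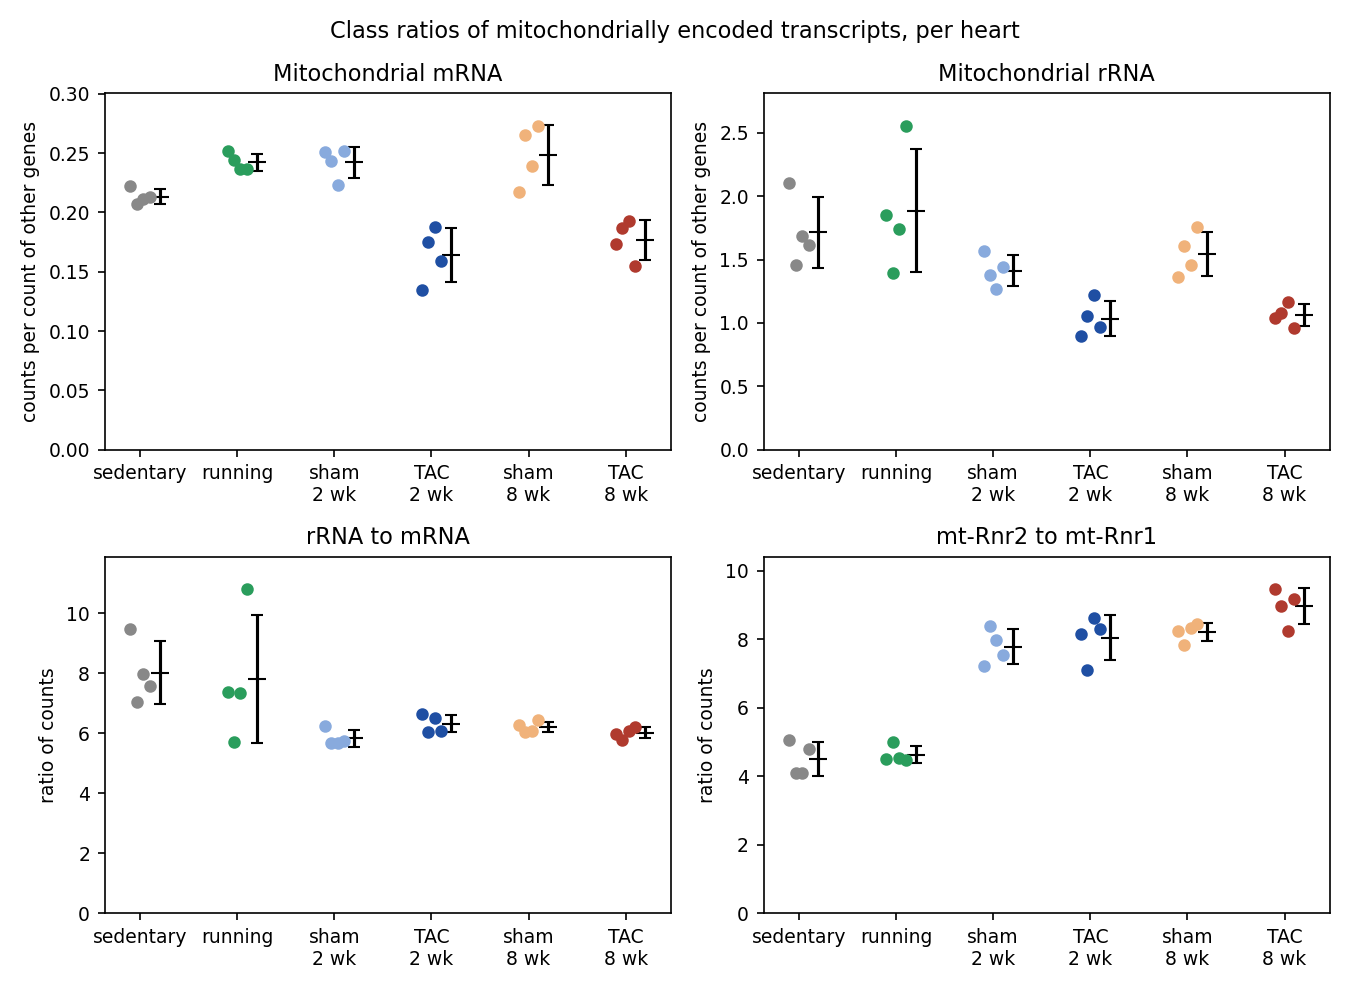
Mitochondrial mRNA and rRNA counts per count of all other genes (top) and the ratios of rRNA to mRNA and of mt-Rnr2 to mt-Rnr1 counts (bottom), by library (points) with the mean ± SD of 4 (black). mRNA and rRNA are lower in each TAC group than in its sham group, and mt-Rnr2 to mt-Rnr1 is 4.09 to 5.05 in the 8 exercise libraries and 7.10 to 9.46 in the 16 surgical libraries.

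The ratio of the large to the small rRNA divided the libraries by experiment and not by treatment. mt-Rnr2 counts were 5.05, 4.09, 4.09 and 4.80 times those of mt-Rnr1 in sedentary and 4.51, 5.00, 4.54 and 4.48 times in running hearts. In the surgical hearts the ratio was 7.22, 8.38, 7.98 and 7.55 (sham) and 8.15, 7.10, 8.64 and 8.30 (TAC) at 2 weeks, and 8.25, 7.84, 8.33 and 8.44 (sham) and 9.46, 8.97, 8.25 and 9.19 (TAC) at 8 weeks. The exercise and surgical libraries did not overlap, though sedentary and sham mice are both controls; surgery and the handling of each experiment cannot be told apart here. The gap came from mt-Rnr1, at 118570 ± 13828 CPM per kilobase in sedentary hearts against 67247 ± 7304 and 69231 ± 6863 in the sham groups, while mt-Rnr2 was at 323205 ± 57464, 314442 ± 17405 and 343102 ± 32042. Within comparisons the ratio did not separate the groups (by exact permutation, p = 0.629 under running, 0.571 after 2 weeks and 0.114 after 8 weeks of TAC). mt-Nd6, the light strand mRNA, held 9.87 ± 1.2 counts per 1000 of the other mRNAs in sedentary, 10.4 ± 0.80 in 2-week sham and 10.7 ± 0.64 in 2-week TAC hearts, and 10.1 ± 0.30 and 10.4 ± 0.78 in 8-week sham and TAC hearts (exact permutation p from 0.457 to 0.714 over the 3 comparisons). The heavy strand transcript also covers the complement of mt-Nd6. Whether reads were counted by strand was not stated, and without strand the reads of both cannot be told apart.

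Running gave small upward differences in these genes, none called. The 15 log2 fold changes ran from 0.11 to 0.40 with a median of 0.18, beside 0.01 over the 13824 genes tested, and edgeR called 0 members, as 0% of all genes. At an unadjusted p under 0.05 by edgeR, 9 of the 15 and 665 of all genes passed, and DESeq2 called 0 of the 15 and 9 of all genes. The rise depended on the scale. With scaling to library totals the 15 ran from 0.0013 to 0.34 with a median of 0.10, beside -0.07 over all genes tested. By edgeR on that scale, 0 of the 15 and 486 of all genes passed an unadjusted p under 0.05. For 6 members, mt-Nd2, mt-Cytb, mt-Co1, mt-Co3, mt-Nd4l and mt-Nd4, every running library was above every sedentary library in CPM, as were 1.72% of all genes tested. mt-Nd2 had 3896, 3515, 3541 and 3468 CPM in sedentary and 4450, 4337, 4301 and 5102 in running hearts, a log2 fold change of 0.32 (SE 0.09; adjusted p = 0.858, edgeR). mt-Cytb had 6468, 5937, 5748 and 5769 against 7242, 6940, 7073 and 7099 CPM, with 0.23 (SE 0.08; adjusted p = 0.953, edgeR). Mitochondrial mRNA per count outside the members was 0.213 ± 0.006 in sedentary and 0.242 ± 0.007 in running hearts, without overlap (exact permutation p = 0.0286, adjusted 0.0964). The rRNAs were spread more widely: mt-Rnr2 had 641371, 431253, 496736 and 475880 CPM in sedentary and 552931, 439397, 523855 and 760445 in running hearts, and the sign of its fold change turned without running replicate 4.

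The difference between the TAC and running effects was tested directly as an interaction. All 15 members had a lower 2-week TAC effect than running effect (log2 differences of -1.19 to -0.66; edgeR), where 9.56% of 14729 genes tested were called lower. mt-Nd2 differed most, by -1.19 (SE 0.16; adjusted p = 2.8e-05, edgeR). For the 8-week TAC effect 13 of 15 were lower, where 5.35% of all genes tested were, mt-Nd4l with -0.98 (SE 0.15; adjusted p = 0.000343, edgeR); mt-Atp8 (adjusted p = 0.0550) and mt-Co2 (adjusted p = 0.0780) were not called by edgeR, while DESeq2 called both (adjusted p = 0.0355 and 0.0478). With copies added mt-Co2 was called by edgeR, with -0.66 (adjusted p = 0.0050). The rRNA calls were lost when single libraries were left out, with adjusted p of up to 0.0701 in the 2-week and 0.0755 in the 8-week test. In the 8-week test mt-Nd3 and mt-Atp6 lost theirs in the same way, with up to 0.0604, and with all 24 libraries in the fit mt-Nd3 (0.0566) and mt-Co3 (0.0603) were not called. Scaled to library totals, 4 members were called lower in each, where 214 of 14729 and 170 of 14252 genes tested were. Running and TAC come from separate experiments with separate controls, so the interaction also carries any difference between the experiments.

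No member was called in the test between the 8-week and the 2-week TAC effect, which does not show that the effects were alike. The log2 differences ran from -0.04 (mt-Rnr1) to 0.47 (mt-Atp8, SE 0.23; adjusted p = 0.269, edgeR), and edgeR and DESeq2 called 0 of 15. At an unadjusted p under 0.05, 0 passed by edgeR and 1 by DESeq2, and 2 by edgeR scaled to library totals. Of all 14463 genes tested, 2764, 2635 and 2309 passed that cut in the same fits. After adjustment edgeR called 1.36% of all genes tested.

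Nuclear genes for the same complexes were lower at 2 weeks in many cases, where 16.1% of all genes tested were called lower. At that time 24 of 36 nuclear complex I subunits were called lower and 0 higher, with a median log2 fold change of -0.61, beside 7 of 7 and -0.79 for the mitochondrially encoded ones. Among them Ndufv1, which binds NADH, changed by -0.80 (SE 0.11). Nuclear subunits were lower in 7 of 9 cases for complex III (median -0.56), 6 of 12 for complex IV (median -0.55) and 10 of 15 for complex V (median -0.59), and higher in 0. Cox7a1, a heart and skeletal muscle form of a complex IV subunit, changed by -1.01 (SE 0.22) and Atp5a1, of the catalytic head of ATP synthase, by -0.76 (SE 0.13).

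At 8 weeks the nuclear list medians ran from -0.12 to -0.02, and 14.7% of all genes tested were called lower and 14.9% higher. Nuclear complex I subunits were lower in 5 and higher in 1 of 36 with a median of -0.02, beside 7 of 7 lower and -0.66 for the mt-Nd genes. For complex III it was 3 of 9 lower (median -0.12), for complex IV 1 of 12 (median -0.03, beside -0.33 for mt-Co1 to mt-Co3) and for complex V 5 of 15 (median -0.10), with 0 higher. The called genes included Ndufab1, the mitochondrial acyl carrier protein (-0.55, SE 0.08), Cyc1, cytochrome c1 (-0.59, SE 0.09), and Atp5j, a stalk subunit of ATP synthase (-0.52, SE 0.08). The difference between a nuclear list and the mitochondrial genes was not tested. By the edgeR test of the difference between the 8-week and the 2-week effect, 1 of the 36 nuclear complex I subunits (Ndufa10) differed. For complexes III, IV and V 0 differed, where 1.36% of all genes tested were called. The median log2 differences of these lists were 0.54, 0.45, 0.49 and 0.50 for complexes I, III, IV and V, beside -0.01 over all genes tested. Under running, where no gene at all was called, the list medians ran from -0.02 to 0.03.

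Nuclear genes that make, cut and translate mitochondrial RNA were also called lower in part, beside the same shares of all genes tested called lower (16.1% at 2 and 14.7% at 8 weeks). Of 20 genes for transcription and replication 9 were lower and 1 higher at 2 weeks, and 5 lower and 0 higher of 19 at 8 weeks. Polrmt, the mitochondrial RNA polymerase, changed by -0.58 (SE 0.10; adjusted p = 0.000450, edgeR) and then by -0.40 (SE 0.11; adjusted p = 0.0115, edgeR). Twnk, the helicase of mitochondrial DNA replication, changed by -0.79 and by -0.37. Of 36 genes for RNA processing and stability 16 were lower and 1 higher at 2 weeks, then 7 lower and 4 higher at 8 weeks, where 14.9% of all genes tested were called higher. Lrpprc, which binds and stabilises mitochondrial mRNAs, changed by -0.68 (SE 0.10) and by -0.32 (SE 0.07). Supv3l1, a helicase of mitochondrial RNA decay, changed by -0.66 at 2 weeks, and Fastk by -0.72 at 2 and -0.40 at 8 weeks.

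Mitochondrial tRNA synthetases and related enzymes were lower in 15 of 20 cases at 2 weeks and in 5 of 20 at 8 weeks, and translation factors in 8 of 15 and 2 of 15, with 0 higher; all genes tested were called lower in 16.1% and 14.7%. The elongation factors Tufm and Gfm1 changed by -0.68 (SE 0.08) and -0.73 (SE 0.10) at 2 weeks, and Tufm by -0.32 (SE 0.08) at 8 weeks. Taco1, needed for translation of mt-Co1, changed by -0.78 (SE 0.11) at 2 weeks. In the test of the difference between both TAC effects 5 genes of these lists were called, all with a higher effect at 8 weeks, as 0.933% of all genes tested were: Supv3l1, Ptcd3, Fastkd2, Taco1 and Gfm1.

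Markers of cell types moved with the same comparisons. The 8 cardiomyocyte markers summed to 21004 to 25011 CPM in sham and 11964 to 14567 CPM in TAC hearts at 2 weeks, with 7 of 8 called lower, and to 21706 to 24801 and 16061 to 17066 CPM at 8 weeks, with 4 of 8 lower, where 16.1% and 14.7% of all genes tested were called lower. Fibroblast markers rose in 7 of 7 cases at 2 weeks (461 to 673 CPM in sham, 1706 to 2653 CPM in TAC hearts) and in 6 of 7 at 8 weeks (386 to 527 and 856 to 1148 CPM), where 17.1% and 14.9% of all genes tested were called higher. All 6 macrophage markers rose at both times, from 106 to 173 up to 225 to 294 CPM at 2 weeks and from 77.6 to 123 up to 135 to 221 CPM at 8 weeks. Endothelial markers rose in 2 of 5 cases at 2 weeks and 0 of 5 at 8 weeks. Of 5 smooth muscle and pericyte markers 3 rose and 1 fell at 2 weeks, and 1 rose and 1 fell at 8 weeks. The 4 erythroid genes did not pass the test at 2 weeks, and 2 rose at 8 weeks. Only 1 of 5 skeletal muscle markers (Ckm, lower at 2 weeks) and 1 of 3 brown fat markers (not called) passed the filter on low counts. Summed, the brown fat list stayed between 3.98 and 8.45 CPM in all 24 libraries, and no marker of any list was at 0 in all of them. The part of these shifts in the lower mitochondrial counts was not tested, and in whole hearts fewer cardiomyocytes and less mitochondrial RNA in each cannot be told apart. Under running, cardiomyocyte markers summed to 19677 to 23368 CPM against 20520 to 22563 CPM in sedentary hearts.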

How the data were processed

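Hearts had been frozen, RNA extracted with Trizol, rRNA removed with RiboZero and libraries made with an NEB kit, per the labels' protocols. The deposited table holds one estimated count per Ensembl gene and library, taken as Salmon estimates that the authors rounded to whole numbers; Salmon, FastQC and build mm9 are named in the submitters' processing notes, and for the transcript annotation and strand setting nothing is stated. Symbols were found for 42462 of the 43432 identifiers and not for 970; 1 row with no name held 0 counts. Groups were read from the sample titles. The rule for the members reads symbols alone, but this set of genes and the gene lists were chosen with earlier results of these data known.

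The counts were tested over the whole table with edgeR 4.0.16 (R 4.3.3): TMM factors, filterByExpr on the groups compared, a robust quasi-likelihood fit and Benjamini-Hochberg adjustment over all genes tested, called at an adjusted p under 0.05. Differences between effects were contrasts over 16 libraries. Of the 37 members, 15 passed the filter in every comparison. Class ratios and shares were log2 values per library, compared by exact two-sided permutation over 70 arrangements and adjusted over 27 tests. The steps were tested on simulated data. All counted members were described by name; of each nuclear list, up to 3 called genes with the smallest p were named per TAC comparison. Genes called in the test between both TAC effects were named because they were few. Alternatives were DESeq2 1.42.0, library-total scaling, scaling to other genes, no filter, all 24 libraries in 1 fit, copies added and left-out replicates. Further ones were a replicate block and a covariate for earlier or later library numbers within a cohort. For ratios, medians, per-kilobase counts and leaving out the 3 shortest mRNAs were added. Coordinates were not used, since the reference annotation is of another build than the one named.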

Additional observations from a re-analysis of the deposited data

Results flagged for a closer look

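Single libraries stood apart from the other 3 of their group by Dixon's test at the 95% level in 10 of 144 groups of values, where chance gives about 1 in 20. Sedentary replicate 1 was apart in 4: its mt-Nd2 was at 3896 CPM (others 3468 to 3541), mt-Nd5 at 6524 CPM (others 6107 to 6127), mt-Atp6 at 2732 CPM (others 3077 to 3120) and the complex V share at 3.96% (others 4.47 to 4.54%). In running replicate 2 the ratio of mt-Rnr2 to mt-Rnr1 was 5.00 (others 4.48 to 4.54), and in 2-week sham replicate 1 the ratio of rRNA to mRNA was 6.25 (others 5.66 to 5.75). mt-Nd4l was at 279 CPM in 2-week TAC replicate 1 (others 397 to 402) and at 770 CPM in 8-week sham replicate 4 (others 589 to 612), where the complex I share was 31.2% (others 28.8 to 29.0%). mt-Nd4 was at 5423 CPM in 8-week TAC replicate 2 (others 4433 to 4531).

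The 2-week TAC effect differed from the running effect in all 15 counted genes by edgeR's test of the difference. Of 14729 genes tested, 9.56% were called lower in that test. On the log2 scale the differences were -1.19 for mt-Nd2, -1.099 for mt-Nd4l, -1.04 for mt-Atp8, -1.03 for mt-Nd1, -1.01 for mt-Cytb, -0.96 for mt-Nd4, -0.92 for mt-Nd5, -0.88 for mt-Nd6, -0.85 for mt-Co1, -0.84 for mt-Co2, -0.79 for mt-Nd3, -0.74 for mt-Rnr1, -0.72 for mt-Rnr2, -0.71 for mt-Co3 and -0.66 for mt-Atp6. The 8-week TAC effect differed from the running effect in 13 genes, where 5.35% of 14252 genes tested were called lower. These differences were -0.98 for mt-Nd4l, -0.97 for mt-Nd2, -0.97 for mt-Cytb, -0.93 for mt-Nd4, -0.92 for mt-Nd5, -0.84 for mt-Nd1, -0.77 for mt-Rnr1, -0.68 for mt-Rnr2, -0.67 for mt-Nd6, -0.62 for mt-Co1, -0.54 for mt-Atp6, -0.49 for mt-Nd3 and -0.49 for mt-Co3. Scaled to library totals, 4 members were called lower in each test.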

How the results depend on the processing

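Counts of called members moved by over 1.5 times in 5 cases. Scaled to library totals, 8 members were called lower at 2 weeks of TAC and 8 at 8 weeks, beside 614 of 14224 and 568 of 13621 genes tested. On that scale 4 were called lower for the 2-week effect minus the running effect and 4 for the 8-week effect minus it. Of all genes tested, 214 of 14729 and 170 of 14252 were called lower there. With the replicate block 1 member was called under running (mt-Atp8, 0.41), as were 47 of all 13824 genes tested. The replicate numbers of the titles were not taken as pairs. Correlations of libraries with the same replicate number were 0.488, 0.352, 0.177 and 0.0501 for running. They were 0.188, -0.0313, 0.283 and 0.103 for TAC at 2 weeks and -0.297, 0.115, 0.120 and -0.209 at 8 weeks. Libraries did not all correlate best with their own replicate number. The block called 14 members at 2 weeks (not mt-Atp8) and 13 at 8 weeks (not mt-Nd3). The covariate for earlier or later library numbers, which at 8 weeks went largely with TAC, called 15 and 11. Among all genes tested, the block called 2676 of 14224 and 1802 of 13621 lower, and the covariate 2226 and 1261. With copies added the log2 difference of the complex V share was -0.0374 at 2 weeks (0.17 as deposited) and 0.0248 at 8 weeks (0.14); the other 154 values of ratios kept theirs within the spread.

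Leaving out single libraries gave 0 calls under running, 14 to 15 at 2 weeks, 11 to 14 at 8 weeks, 0 for the 8-week minus the 2-week effect, 13 to 15 for the 2-week minus the running effect and 9 to 15 for the 8-week minus the running effect. Signs turned for some values near 0. Scaled to library totals, the 8-week fold changes of mt-Co2 (0.00486), mt-Co3 (0.0100), mt-Nd3 (0.0306) and mt-Atp8 (0.16) turned, as did the 8-week minus 2-week differences of mt-Rnr2 (-0.0331), mt-Nd4 (-0.0455) and mt-Cytb (-0.0351). That of mt-Nd5 was 0.0111 with scaling to other genes, 0.0124 without the filter and 4.82e-06 with copies added. With libraries left out, running fold changes ran from -0.0766 to 0.25 for mt-Rnr1 and from -0.0335 to 0.27 for mt-Rnr2. The 8-week minus 2-week differences ran from -0.13 to 0.0463 for mt-Rnr1, -0.0551 to 0.16 for mt-Rnr2, -0.00234 to 0.19 for mt-Atp6, -0.00561 to 0.22 for mt-Nd4l, -0.0462 to 0.0994 for mt-Nd4, -0.0828 to 0.0914 for mt-Nd5 and -0.0533 to 0.11 for mt-Cytb. The cause was not tested. Counting error was not estimated apart from the spread between libraries. Each group held 4 libraries, reads were shared with nuclear copies, and the tRNAs gave no values.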
